A study of Mus musculus with 30 samples.

Results

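Red pulp macrophages (RPM) and Ly6C+ monocytes (Mono) were compared in the spleens of TLR7.1 mice, a line that overexpresses Tlr7. The comparison used the 12 libraries labelled TLR7.1 and either RPM or Mono, of 30 libraries in the series, namely 6 of each population. Each of 6 female TLR7.1 mice, aged 10 to 15 weeks, gave 1 library of each population, so that every difference was taken within a mouse. The other libraries were 6 of inflammatory hemophagocytes from the same TLR7.1 mice, not compared here, and 6 each of RPM and Mono from 6 female WT B6 mice of 9.4 to 15.7 weeks. The question behind the comparison was how a resident splenic macrophage and an incoming monocyte differ when both carry excess Tlr7. Both gates took live CD45.2+ cells without Ly6G or SiglecF. Mono were sorted as CD11b+, Ccr2+ and Ly6C+, and RPM as F4/80+, VCAMhi, CD31low, Ly6C- and CD11b-/int. Each library held the RNA of 500 cells amplified as full-length cDNA. The promoter that drives the extra Tlr7 and its copy number are stated by no source used here.

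Red pulp macrophages sit in the splenic cords, engulf worn-out red blood cells, break down their heme and return the iron to plasma. They depend on the transcription factor SpiC, which heme induces by releasing the repressor Bach1. Ly6C-high monocytes come from the bone marrow through the chemokine receptor Ccr2, carry granule proteins and inflammatory receptors, and can turn into macrophages or dendritic cells. TLR7 is an endosomal receptor for single-stranded RNA that signals through the adaptor Myd88 to cytokine and interferon genes.

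The Tlr7 level told the genotypes apart. On CPM, which divides each count by the TMM-scaled size of its library, taken over the RPM and Mono libraries of both genotypes, Tlr7 lay at 512 to 1534 in TLR7.1 RPM and 743 to 1170 in TLR7.1 Mono, against 109 to 370 in WT RPM and 214 to 359 in WT Mono. The TLR7.1 and WT ranges did not overlap. Within TLR7.1 mice, RPM and Mono overlapped and Tlr7 did not pass the test (log2 fold change 0.07 ± 0.15 (SE), edgeR adjusted p = 0.76, RPM higher in 3 of 6 mice).

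The genes of the gates were compared first. All further levels are CPM scaled over the 12 TLR7.1 libraries, and are given as the lowest, the median and the highest of 6. Vcam1, the adhesion molecule of the RPM gate, lay at 1254, 2316 and 3930 CPM in RPM and at 0, 0.892 and 5.24 in Mono. Ccr2 lay at 0, 0.713 and 4.06 in RPM and at 1378, 1488 and 1639 in Mono, and Ly6c2, a gene of the Ly6C antigen, at 4.06, 23.9 and 61.2 against 433, 482 and 588. For these 3 genes no RPM library overlapped a Mono library. Among the other gate genes, Adgre1 (F4/80) was higher in RPM by 1.23 ± 0.16 on the log2 scale and Itgam (CD11b) was lower at -4.33 ± 0.45 (edgeR, adjusted p at most 0.00032, n = 6 pairs). The sort chose cells by these proteins, so their differences are no findings. Pecam1 (CD31) lay at 53.6, 130 and 183 CPM in RPM, which were gated as CD31low, and at 4.59, 13 and 18 in Mono, for which the gate names no CD31. Its mRNA was higher in RPM by 3.31 ± 0.27 on the log2 scale, in 6 of 6 mice. Spic, which no gate used, lay at 1087, 1174 and 1624 CPM in RPM and at 48.4, 74.7 and 129 in Mono. The groups stood apart, with a log2 fold change of 4.06 ± 0.21 (edgeR adjusted p = 1e-06).

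Library depth and other cells moved with the population. Total counts were 268275 to 1257240 in RPM and 1157446 to 1719010 in Mono. Mitochondrial genes took 0.625 to 1.88% of the counts in RPM and 0.361 to 0.475% in Mono. Their share was higher in RPM in 6 of 6 mice (exact two-sided sign-flip test, p = 0.03125, the smallest 6 pairs allow). Within RPM it fell with depth, from 1.88% at 268275 counts and 1.49% at 403494 to 0.625% at 1257240. The part of depth in this difference was not tested. Of the erythroid list all 19 tested genes were higher in RPM, with a summed level of 4225 to 6925 CPM against 93.4 to 394 in Mono, and of the B cell list 10 of 12 were, with sums of 1809 to 4980 against 710 to 1121. Cd79a, a B cell receptor chain named after its values were seen, lay at 28.4 to 241 CPM in RPM and 0 to 32.8 in Mono. T and NK cell genes summed to 24.3 to 2423 CPM in RPM and 22.0 to 112 in Mono, the highest in the library of mouse 24107. Of the neutrophil list 6 of 7 tested genes were lower in RPM (sums of 55.6 to 486 against 815 to 2551 CPM). Plasma cell genes summed to 337 to 4161 CPM in RPM and 604 to 740 in Mono, and were higher in RPM in 5 of 6 mice. Megakaryocyte and platelet genes summed to 415 to 525 against 2.38 to 18.9, of which Clec1b gave 298 to 467 CPM in RPM.

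Lists of cells that neighbour RPM in the spleen were higher in RPM in 6 of 6 mice as well. Stromal and endothelial genes summed to 170 to 509 CPM in RPM and 18 to 45.5 in Mono, with Stab2 at 128 to 504 in RPM and with Col1a1, Col3a1, Lum and Plvap at 0 in all 12 libraries. Marginal zone macrophage genes summed to 491 to 951 against 19.8 to 107, with Nr1h3 and Marco called higher and Cd209b at 0 in all 12. The part of all these cells in the results was not tested. In bulk samples a smaller number of cells of a type and less RNA per cell cannot be told apart.

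Of 9622 genes tested, 3703 (38.5%) differed between RPM and Mono at an adjusted p under 0.05 (edgeR quasi-likelihood test with mouse as a block, Benjamini-Hochberg adjustment over all genes). Of these, 1794 (18.6%) were higher in RPM and 1909 (19.8%) lower. Counts of called list members in this fit, above and below, are to be read against these shares. The difference was at least 2-fold for 1316 of the higher and 1569 of the lower genes, and at least 16-fold for 231 and 228. For 2803 genes (29.1%) the 6 RPM libraries did not overlap the 6 Mono libraries. The median log2 fold change over all genes tested was -0.17. Of the 3703 genes, 3691 had the same sign in the mean of each of the 3 collection dates (2 mice each). The genes were called from these same mice, so this agreement was largely fixed by the call and is no test. A population by date term was called by edgeR for 0 of 9622 genes, with 202 at an unadjusted p under 0.05. With 2 mice a date, that term can miss differences between dates. Of the 5919 genes not called, 1602 had a 95% interval within a 2-fold change either way. Replicates are separate mice.

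**Figure D1:**
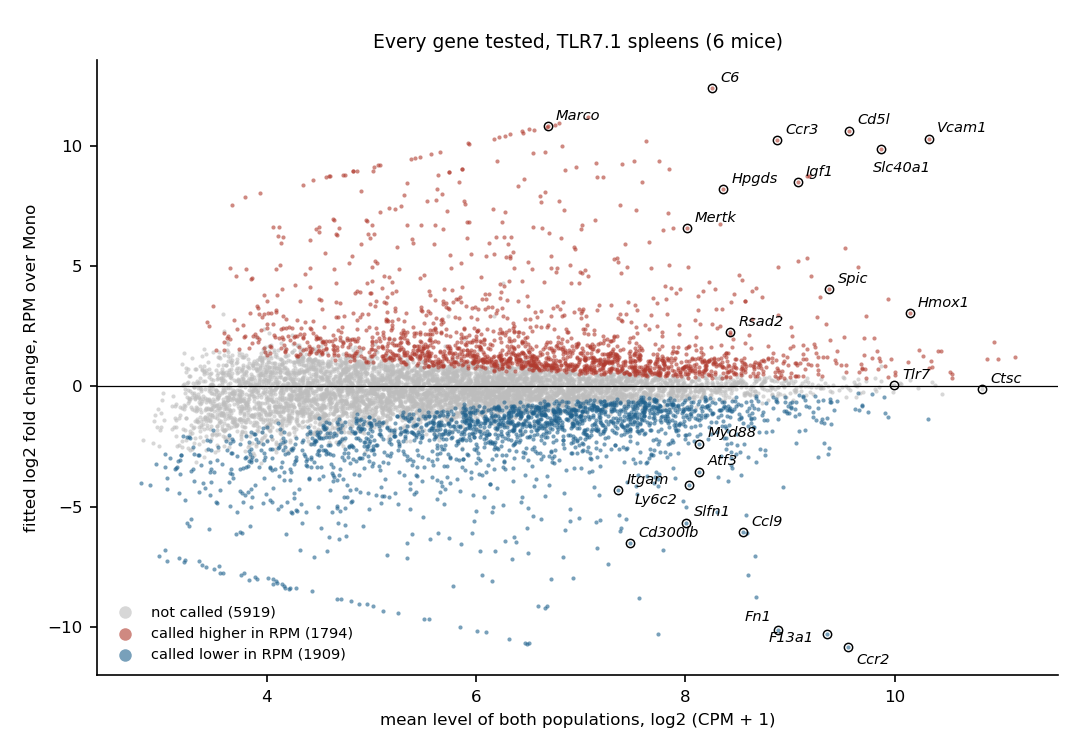
Fitted log2 fold change of RPM over Mono (vertical) against the mean level of both populations on the log2 (CPM + 1) scale (horizontal), 1 point for each of 9622 genes tested, with 1794 called higher in red, 1909 called lower in blue and genes of the text circled. C6 and Ccr2 lie near the ends of the range and Tlr7 near 0, and the thin slanting rows of points at the top and bottom are genes with no count in one population, whose fitted value depends on the prior count.

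The 15 largest rises were mostly genes with no count at all in Mono. Complement component C6 lay at 331, 656 and 721 CPM in RPM and at 0 in every Mono library, which put it at least 1750-fold higher (against a floor of 3 counts over the 6 Mono libraries, as for all such bounds here). Cd5l, a secreted scavenger protein of tissue macrophages, lay at 1014, 1542 and 2069 CPM against 0, 0 and 4.59. The ranges of both genes were far apart, and Cd5l rose by 10.65 ± 0.52 on the log2 scale (edgeR adjusted p = 7e-07). The scavenger receptor Marco, the GDNF family receptor Gfra2, the glutamate transporter Slc1a3 and the organic anion transporter Slco2b1 also had no Mono count and were at least 575-, 689-, 609- and 585-fold higher. The rest were Ccdc148, the semaphorin Sema6d, the heparan sulfate enzyme Hs3st2, Pcolce2, the potassium channel Kcnj16, the phosphatase Ptprm, the lipid phosphatase Plpp3, Paqr9 and the gate gene Vcam1. Of these, the ones other than Vcam1 were at least 419-fold higher, with RPM medians of 130 to 200 CPM.

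Of 24 tested genes of the red pulp macrophage list 20 were higher in RPM, with a list median of 4.32 on the log2 scale against -0.17 over all genes. This list was drawn from general knowledge of these cells, with earlier results of these data known. Slc40a1, which encodes ferroportin, the only known cellular iron exporter, lay at 1423, 1734 and 2390 CPM in RPM and at 0, 0.735 and 8.52 in Mono. The ranges did not overlap, and the log2 fold change was 9.89 ± 0.50 (edgeR adjusted p = 1e-06). Timd4, a receptor for the phosphatidylserine of dying cells, had 731 counts in RPM and 1 in Mono, a pooled ratio scaled for depth of 1591 (95% interval 285 to 62928, which like all such intervals covers counting error only). Cd68, a lysosomal glycoprotein used as a macrophage marker, and Fcgr1, the high-affinity IgG receptor, were not called, at 0.09 ± 0.13 and -0.13 ± 0.16 on the log2 scale.

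The transcription factors of the macrophage lineage divided. Of 27 tested, 8 were higher in RPM and 8 lower. Beside Spic, the higher ones included Maf (217, 541 and 853 CPM against 14.3, 36.1 and 45.4) and Nr1h3, the oxysterol receptor LXR-alpha (328, 524 and 721 against 9.32, 41.1 and 79.3). In both cases the lowest RPM library stood above the highest Mono library, and the log2 fold changes were 3.99 ± 0.41 and 3.77 ± 0.37 (edgeR adjusted p at most 7.6e-05). Nr4a1, the factor that Ly6C-low monocytes need, was lower in RPM at 16.3, 41.6 and 139 CPM against 221, 335 and 458 (-2.99 ± 0.34). Id1, an inhibitor of helix-loop-helix factors, had 3 counts in RPM and 247 in Mono, which was a pooled ratio of Mono over RPM of 37.8, 95% interval 12.8 to 185. Irf8 and Zeb2, both needed for monocyte development, were not called (0.34 ± 0.15 and -0.57 ± 0.22, edgeR adjusted p = 0.098 and 0.06), but Zeb2 was called lower under 7 alternatives, DESeq2 and RLE scaling among them.

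Among 19 factors of monocytes and their progenitors 7 were lower in RPM and 3 higher. Nfil3 lay at 0, 8.81 and 102 CPM in RPM against 313, 339 and 376 in Mono (-4.46 ± 0.73), and Klf4, which drives monocyte differentiation, at 2.85, 13.4 and 20.3 against 56.9, 80.6 and 117 (-3.01 ± 0.42). Neither overlapped. Cebpd and Klf13 were lower too, at -2.11 ± 0.30 and -1.96 ± 0.21. The gene that went furthest the other way was Tal1, a blood progenitor and erythroid factor, at 22.9, 122 and 191 CPM in RPM and at most 1.2 in Mono. It moved with the erythroid list described above, whose part was not tested.

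Iron and heme handling leaned to RPM, with 18 of 26 tested genes higher and 2 lower. After Slc40a1 the largest rises were those of the transferrin receptor Tfrc (238, 305 and 442 CPM against 1.15, 9.24 and 15.7), the ferroxidase ceruloplasmin, Cp (83.1, 132 and 309 against 2.87, 7.37 and 9.58), and the mitochondrial iron importer Slc25a37 (348, 376 and 448 against 16.8, 31 and 48.2). None of the 3 overlapped between populations, and the log2 fold changes were 5.20 ± 0.37, 4.38 ± 0.35 and 3.68 ± 0.25. Hmox1, the heme oxygenase that opens the heme ring, lay at 1415, 1700 and 3211 CPM against 220, 228 and 267 (3.04 ± 0.18, edgeR adjusted p = 2.5e-06). Bach1, the heme-sensing repressor of Spic and Hmox1, moved the other way, at 14.4, 21.6 and 72.4 CPM in RPM and 92.6, 107 and 124 in Mono (-1.96 ± 0.36). The heme exporter Flvcr1 was also lower (-1.20 ± 0.29), with ranges that overlapped. Tfrc and Slc25a37 are also high in erythroid cells, and erythroid genes summed to at least 4225 CPM in each RPM library. Lrp1 and Pcbp1 were not called.

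**Figure D2:**
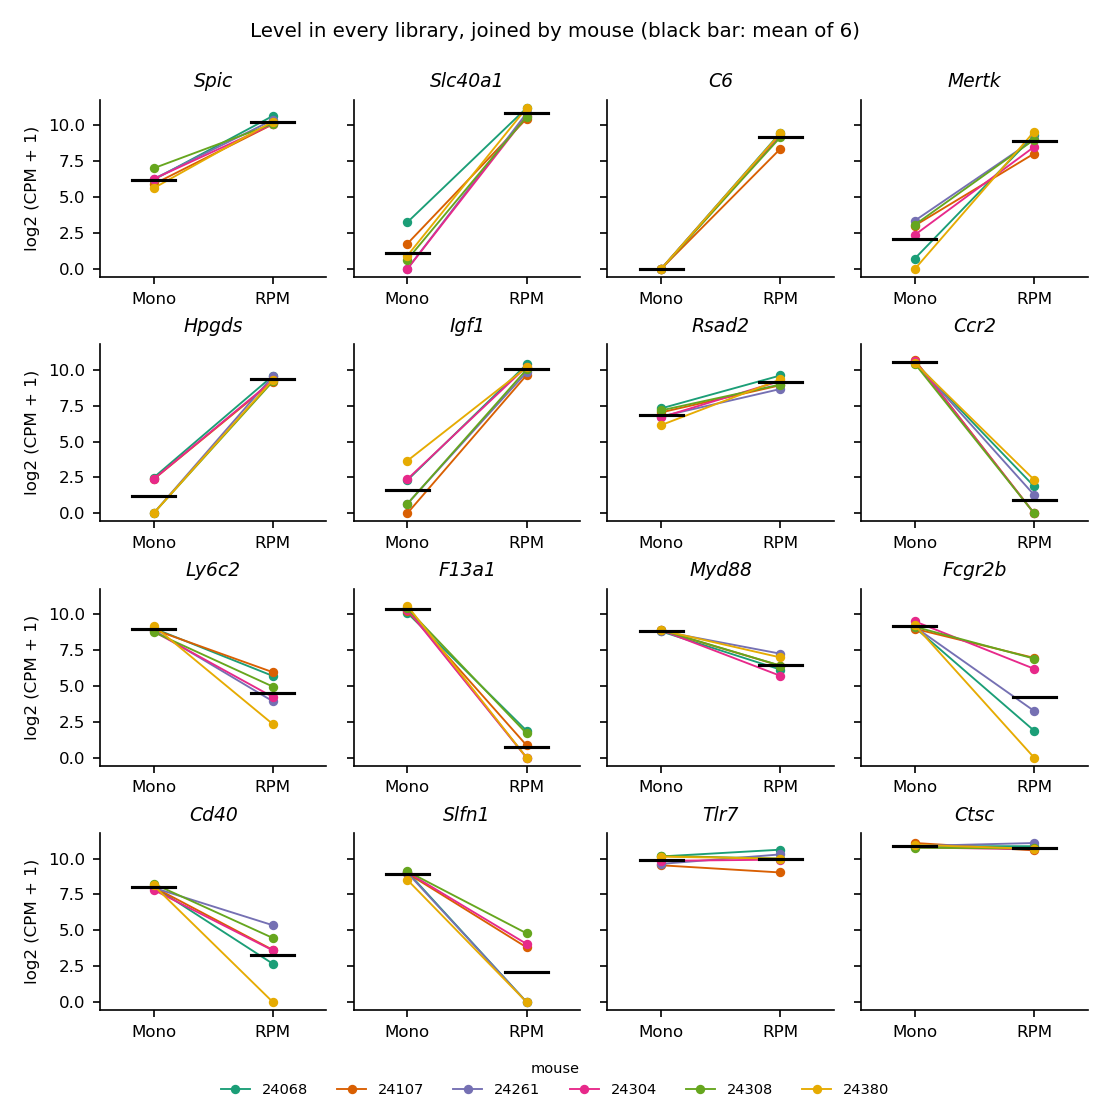
Level of 16 genes on the log2 (CPM + 1) scale (vertical) in the Mono and RPM library of each of 6 mice, joined by a line for each mouse, with a black bar at the mean of 6. Lines run up for Spic, Slc40a1, C6, Mertk, Hpgds, Igf1 and Rsad2, down for Ccr2, Ly6c2, F13a1, Myd88, Fcgr2b, Cd40 and Slfn1, and about level for Tlr7 and Ctsc.

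By the count of genes, receptors for dying cells did not lean to one side: 9 of 24 tested were higher in RPM and 8 lower. Their summed level was 7364 to 12136 CPM in RPM and 4025 to 4672 in Mono, higher in RPM in 6 of 6 mice. Mertk, a kinase that binds bridged phosphatidylserine, lay at 263, 519 and 760 CPM in RPM and at 0, 5.66 and 9.32 in Mono, with a log2 fold change of 6.59 ± 0.54. C1qa, a subunit of the complement opsonin C1q that was counted with these receptors, lay at 770, 1111 and 1443 against 9.9, 29.2 and 37.1 (5.36 ± 0.28). Stab2, which binds phosphatidylserine and hyaluronan, had 958 counts in RPM and 3 in Mono, a pooled ratio of 695, 95% interval 237 to 3376. On the other side stood Cd300lb, an activating receptor of myeloid cells, at 1.11, 2.05 and 11.4 CPM against 307, 344 and 400 (-6.52 ± 0.46), and Havcr2 (TIM-3) at 0, 4.82 and 26.9 against 36.3, 56.4 and 98.2 (-3.17 ± 0.69). The shared engulfment GTPases Rac1 and Rac2 were not called, at -0.08 ± 0.11 and -0.06 ± 0.15.

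Scavenger receptors gave 6 higher and 6 lower of 14, with sums of 3474 to 6519 CPM in RPM and 2242 to 2628 in Mono. The mannose receptor Mrc1 lay at 736, 1416 and 2000 CPM in RPM and 17.2, 23.9 and 45.5 in Mono (5.75 ± 0.22, edgeR adjusted p = 2.2e-07). Msr1, the class A scavenger receptor, ran the other way at 6.67, 34 and 102 against 338, 371 and 436 (-3.55 ± 0.42), and so did the oxidized LDL receptor Olr1, with 1 count in RPM and 223 in Mono (Mono over RPM 102, 95% interval 18.2 to 4065). C-type lectins divided 7 to 7 among 20, with sums of 5153 to 7691 CPM in RPM and 4427 to 4860 in Mono. Clec1b (CLEC-2) lay at 298, 374 and 467 CPM in RPM and at most 2.38 in Mono, and Clec4n (Dectin-2) at 754, 1163 and 1487 against 33.2, 93.9 and 126. No library overlapped for either gene. Clec5a, a DAP12-coupled receptor, had no RPM count and was at least 253-fold lower. Clec4a3 and Clec4a1 were not called, at 0.13 ± 0.11 and -0.12 ± 0.13.

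Among Fc receptors 5 of 9 tested were higher in RPM and 1 was lower. The activating receptor Fcgr4 lay at 621, 868 and 1121 CPM in RPM and at 85.1, 162 and 227 in Mono (2.50 ± 0.17), and Fcgrt, the neonatal receptor that recycles IgG, at 424, 516 and 788 against 75.5, 126 and 178 (2.17 ± 0.19). The only inhibitory Fc-gamma receptor, Fcgr2b, lay at 0, 40.5 and 123 CPM in RPM and at 505, 555 and 724 in Mono (-3.76 ± 0.64, adjusted p = 0.0013). The 3 genes showed no overlap between populations. Fcgr3 was not called (0.35 ± 0.14, adjusted p = 0.064). Of the higher ones, Fcmr and Fcrl5 (3.97 ± 0.58 and 3.82 ± 0.84) are B cell genes.

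Complement had 12 of 19 tested genes higher in RPM and 6 lower. The ficolin Fcna, a lectin that starts complement, lay at 674, 1103 and 1622 CPM in RPM and at most 4.59 in Mono (8.74 ± 0.27). Its groups stood apart. The related ficolin Fcnb was lower at 0, 0 and 16.3 against 29.3, 47 and 80.9 CPM (-5.06 ± 1.02). Cd59a, which blocks the terminal pore that C6 belongs to, had 295 counts in RPM and 3 in Mono (pooled ratio 214, 95% interval 72.5 to 1044).

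Inhibitory receptors had 12 of 23 tested genes higher in RPM and 4 lower. Siglece lay at 238, 315 and 379 CPM in RPM and 35, 60.3 and 67.5 in Mono (2.46 ± 0.20), and Cd24a, a ligand of inhibitory Siglecs, at 538, 636 and 715 against 40.7, 57 and 73.7 (3.53 ± 0.16). Cd22 was higher by 3.63 ± 0.55 and is a B cell gene. The part of B cells and erythroid cells in the Cd24a level was not tested. Lower were the adhesion receptor Ceacam1, at 1.43, 5.73 and 13.4 against 282, 311 and 404 CPM (-5.90 ± 0.37), and Lilra6 (-5.03 ± 0.73). Cd47, the signal that stops engulfment, was not called (0.07 ± 0.12).

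Of the eicosanoid list 8 of 20 tested genes were higher in RPM and 7 lower, with prostaglandin enzymes among the former and leukotriene receptors among the latter. Hpgds, the hematopoietic prostaglandin D synthase, lay at 582, 621 and 766 CPM in RPM and at 0, 2.08 and 4.59 in Mono (8.20 ± 0.53, edgeR adjusted p = 3.5e-06). Ptgs1, the constitutive cyclooxygenase, lay at 163, 476 and 585 against 4.59, 11.7 and 28.7 (5.04 ± 0.42). Both were apart in every library. The leukotriene receptors fell: Cysltr1 had no RPM count and was at least 261-fold lower, and Ltb4r1 had 1 count in RPM and 1882 in Mono (Mono over RPM 865, 95% interval 155 to 34170). The phospholipases Pla2g2d and Pla2g15 rose by 7.38 ± 0.82 and 3.02 ± 0.28, and Pla2g7 was not called (-0.20 ± 0.14).

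The upstream sequences of Hpgds and Ptgs1 are shown because Ptgs1 makes the prostaglandin H that Hpgds turns into prostaglandin D, both rose, and both hold the letters GAGGAAGT, a form of the site bound by PU.1 and SpiC. They were chosen after their values were seen. The 250 bases before the RefSeq start are printed 5′ to 3′ on the strand of the gene (GRCm38.p6, which is not the build of the counts), chr6:65144731-65144980 on the minus strand and chr2:36230176-36230425 on the plus strand, with the match in capitals.
Hpgds: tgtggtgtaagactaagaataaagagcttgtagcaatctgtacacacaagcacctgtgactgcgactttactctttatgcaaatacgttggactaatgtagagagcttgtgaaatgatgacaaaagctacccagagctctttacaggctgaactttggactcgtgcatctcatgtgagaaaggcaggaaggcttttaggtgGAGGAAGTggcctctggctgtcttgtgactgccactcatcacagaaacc
Ptgs1: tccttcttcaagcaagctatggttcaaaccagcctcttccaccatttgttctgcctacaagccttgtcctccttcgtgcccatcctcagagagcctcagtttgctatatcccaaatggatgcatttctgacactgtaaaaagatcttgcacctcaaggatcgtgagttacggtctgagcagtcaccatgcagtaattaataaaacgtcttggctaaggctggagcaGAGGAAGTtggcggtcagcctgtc
The match began 49 bases before the start in Hpgds and 24 before it in Ptgs1. Searched on both strands in windows of 250 bases before to 50 after the start, these letters stood in 3.28% of 27025 promoters. They stood in 3.18% of the windows of genes higher in RPM and in 5.67% of those lower. Of the eicosanoid list they stood in 2 of 8 windows of higher genes and 1 of 5 of lower genes. For its genes not called the count was 0 of 5. A match is a description of letters and not a bound site.

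Among the 15 largest falls was Ccr2 of the Mono gate. F13a1, the transglutaminase of clotting, lay at 0, 0.408 and 2.68 CPM in RPM and at 1093, 1316 and 1545 in Mono (-10.29 ± 0.34), and fibronectin, Fn1, had 3 counts in RPM and 8741 in Mono, a pooled ratio of Mono over RPM of 1339, 95% interval 458 to 6493. The neutrophil collagenase Mmp8 had 1 against 4029 (1851, 95% interval 332 to 73132). Genes with no RPM count were the chemokine receptor Ccr1 and Cysltr1 (each at least 261-fold lower), Clec5a, the glucuronosyltransferase Ugt1a7c (at least 227-fold), the adenosine receptor Adora2b (at least 193-fold), the lipid receptor Trem2 (at least 182-fold), Stxbp6, the iron-binding lipocalin Lcn2, Plcb1, Sgms2 and Tarm1. The last 5 were at least 97.7-fold lower. Mmp8 and Lcn2 are also on the neutrophil list. Of the classical monocyte list 20 of 23 tested genes were lower, and the exceptions included Ifitm3 and Mgst1, whose log2 fold changes of -0.14 ± 0.13 and -0.03 ± 0.15 were not called. Coagulation and matrix genes had 12 of 19 lower and 3 higher. Vcan, a proteoglycan of monocytes, had 1 count in RPM and 1901 in Mono (Mono over RPM 873, 95% interval 157 to 34515), and the collagen Col14a1 had 525 in RPM and 0 in Mono, at least 381-fold higher. The metalloprotease Adamdec1 was at 279, 404 and 585 CPM in RPM and at most 3.28 in Mono. Granule genes of progenitors were lower for 5 of 8, among them Prtn3 (proteinase 3), at 0, 0 and 6.53 against 76.3, 101 and 165 CPM, Elane (neutrophil elastase) and Spink2.

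The Ly6C-low monocyte list, of which RPM share the low Ly6C, did not go one way, with 7 of 19 genes higher and 8 lower. Cx3cr1, the fractalkine receptor, lay at 0, 0 and 9.79 CPM in RPM against 184, 296 and 356 (-6.71 ± 0.69). Cd300e lay at 44.7, 276 and 311 against 1.75, 10.2 and 16.4 (4.75 ± 0.42), and the fatty acid carrier Fabp4 at 103, 199 and 410 against 0, 3.17 and 23.6. All 3 were free of overlap.

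Chemokine receptors were lower for 9 of 14 tested and higher for 4. Beside Ccr2, Ccr1 and Cx3cr1 on the low side, Ccr3, the eotaxin receptor known from eosinophils and basophils, lay at 681, 918 and 1264 CPM in RPM and at most 2.97 in Mono (10.27 ± 0.52). It was the only tested member of the basophil, mast cell and eosinophil list, which summed to 837 to 1264 CPM in RPM and 1.20 to 12.5 in Mono. Of the other members Prg2, an eosinophil granule protein, lay at 0, 37.8 and 149 CPM in RPM and at 0 in Mono, Cd200r3 reached 13.4 in RPM, and Siglecf, Epx, Cpa3 and Ms4a2 were at 0 in all RPM libraries. The part of such cells in the Ccr3 level was not tested. The formyl peptide receptor Fpr1 lay at 314, 465 and 646 CPM against 14.4, 27.4 and 46 (4.07 ± 0.17). Of 12 chemokines 6 were lower and 2 higher. Ccl9 lay at 1.11, 7.69 and 33.3 CPM against 652, 765 and 773 in Mono (-6.05 ± 0.45), and Cxcl10, induced by interferon, at 0, 34.8 and 126 against 156, 214 and 275 (-2.40 ± 0.66). Neither overlapped. Ccl8 was counted only in RPM (175 counts, at least 127-fold higher), and Ccl4 and Cxcl9 were not called (1.11 ± 0.41 and -0.48 ± 0.50), though Ccl4 was called higher under 7 alternatives, DESeq2 among them.

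Of the cytokines and growth factors 10 of 25 tested were higher in RPM and 7 lower. Insulin-like growth factor 1, Igf1, lay at 794, 1096 and 1335 CPM in RPM and at 0, 2.26 and 11.7 in Mono (8.51 ± 0.48). Pdgfc and Fgf1 had no Mono count and were at least 203- and 157-fold higher. Il1a was higher at 28.5, 86.8 and 150 CPM against at most 2.62. Oncostatin M, Osm, was lower at 0, 0 and 11.1 against 78.4, 154 and 210 (-6.42 ± 0.77), and Tnfsf14 (LIGHT) had 242 counts, all in Mono, and was at least 37.1-fold lower. Of the receptors of such factors, 14 of 27 were lower and 5 higher. Il13ra1, shared by IL-4 and IL-13, lay at 2.68, 28.9 and 63.4 CPM against 320, 413 and 434 (-3.64 ± 0.40), and Il17ra was lower too (-2.76 ± 0.38). Tgfbr2 was higher (2.69 ± 0.21), and so was the erythropoietin receptor Epor, with 414 counts in RPM and 3 in Mono (pooled ratio 300, 95% interval 102 to 1462). The part of erythroid cells in the Epor level was not tested. The interferon receptor chain Ifnar2 was not called (0.25 ± 0.17).

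While Tlr7 itself was not called, the Toll-like receptor list was lower in RPM for 15 of 37 genes and higher for 6. Myd88, the adaptor that TLR7 needs, lay at 51.2, 84.3 and 151 CPM in RPM and at 446, 471 and 476 in Mono. The groups did not overlap and the log2 fold change was -2.38 ± 0.22 (edgeR adjusted p = 3.2e-05). Tlr13, which senses bacterial ribosomal RNA, was lower at 55.5, 102 and 163 against 339, 385 and 420 CPM (-2.02 ± 0.28), and Tlr6 and the adaptor Ticam2 were lower at -2.79 ± 0.73 and -2.14 ± 0.58. On the high side stood Pld3, a lysosomal nuclease that degrades single-stranded nucleic acids, at 513, 720 and 1101 CPM against 22.3, 48.2 and 62.9 (3.98 ± 0.24), and Tlr3, the receptor for double-stranded RNA, at 0, 58.9 and 105 against 1.79, 9.83 and 16.2 (2.24 ± 0.47). Ly86, which associates with the receptor RP105, was not called (0.13 ± 0.11).

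Type I interferon response genes were lower in RPM for 26 of 46 tested and higher for 6, with a median of -1.06 on the log2 scale against -0.17 over all genes. Their sum was 8157 to 10042 CPM in RPM and 10153 to 13308 in Mono. Slfn1 lay at 0, 6.53 and 26.7 CPM in RPM and 367, 523 and 553 in Mono (-5.67 ± 0.53). The nucleic acid sensor family member Ifi205 lay at 0, 0.557 and 77.5 against 119, 200 and 222 (-4.58 ± 0.82), and the oligoadenylate synthetase Oas1g at 2.45, 12.2 and 18.8 against 77.1, 100 and 132 (-3.36 ± 0.41). These 3 showed no overlap. Rsad2, the antiviral enzyme viperin, was among the 6 that were higher, at 405, 551 and 780 CPM in RPM and 69.9, 118 and 158 in Mono (2.27 ± 0.20, edgeR adjusted p = 2.5e-05), higher in 6 of 6 mice. Isg20 was higher by 1.04 ± 0.30 with overlapping ranges, a call lost without mouse 24261, 24304 or 24308, and Trim30a and Rtp4 were not called (0.09 ± 0.15 and -0.04 ± 0.12). The count of higher genes fell from 6 to 3 without mouse 24068 and to 2 without mouse 24261. Over all genes those fits called 1719 of 9679 and 1458 of 9628 higher.

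The upstream sequences of Rsad2, Oas1g and Ifi205 are shown because these genes went opposite ways and all hold the core of the interferon-stimulated response element, GAAA followed by any 2 letters and again GAAA. They were also chosen after their values were seen. The 250 bases before the start are printed as above, all from the minus strand (GRCm38.p6), from chr12:26456453-26456702, chr5:120887614-120887863 and chr1:174031756-174032005, with matches on either strand in capitals.
Rsad2: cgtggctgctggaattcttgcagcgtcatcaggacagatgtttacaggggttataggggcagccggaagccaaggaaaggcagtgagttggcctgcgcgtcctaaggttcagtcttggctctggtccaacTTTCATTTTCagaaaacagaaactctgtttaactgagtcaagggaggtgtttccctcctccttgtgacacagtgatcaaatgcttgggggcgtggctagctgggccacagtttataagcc
Oas1g: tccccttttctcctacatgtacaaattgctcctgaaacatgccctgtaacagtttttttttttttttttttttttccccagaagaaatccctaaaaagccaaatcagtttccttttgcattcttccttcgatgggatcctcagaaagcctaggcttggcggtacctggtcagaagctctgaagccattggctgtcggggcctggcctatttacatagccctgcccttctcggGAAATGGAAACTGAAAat
Ifi205: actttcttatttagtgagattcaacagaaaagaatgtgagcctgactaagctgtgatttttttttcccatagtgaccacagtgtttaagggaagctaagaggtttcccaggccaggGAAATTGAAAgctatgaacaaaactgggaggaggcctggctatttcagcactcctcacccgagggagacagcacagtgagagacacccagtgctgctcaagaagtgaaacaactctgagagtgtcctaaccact
In Rsad2 the match lay on the opposite strand and began 120 bases before the start. Oas1g held 2 overlapping matches from 18 and 12 bases before it, and Ifi205 held 1 from 134 bases before it and a further 1 past the start. The core stood in 3.49% of all 27025 promoters. Of the interferon list it stood in 2 of 3 windows of higher genes, 7 of 19 of lower genes and 8 of 11 of genes not called.

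**Figure D3:**
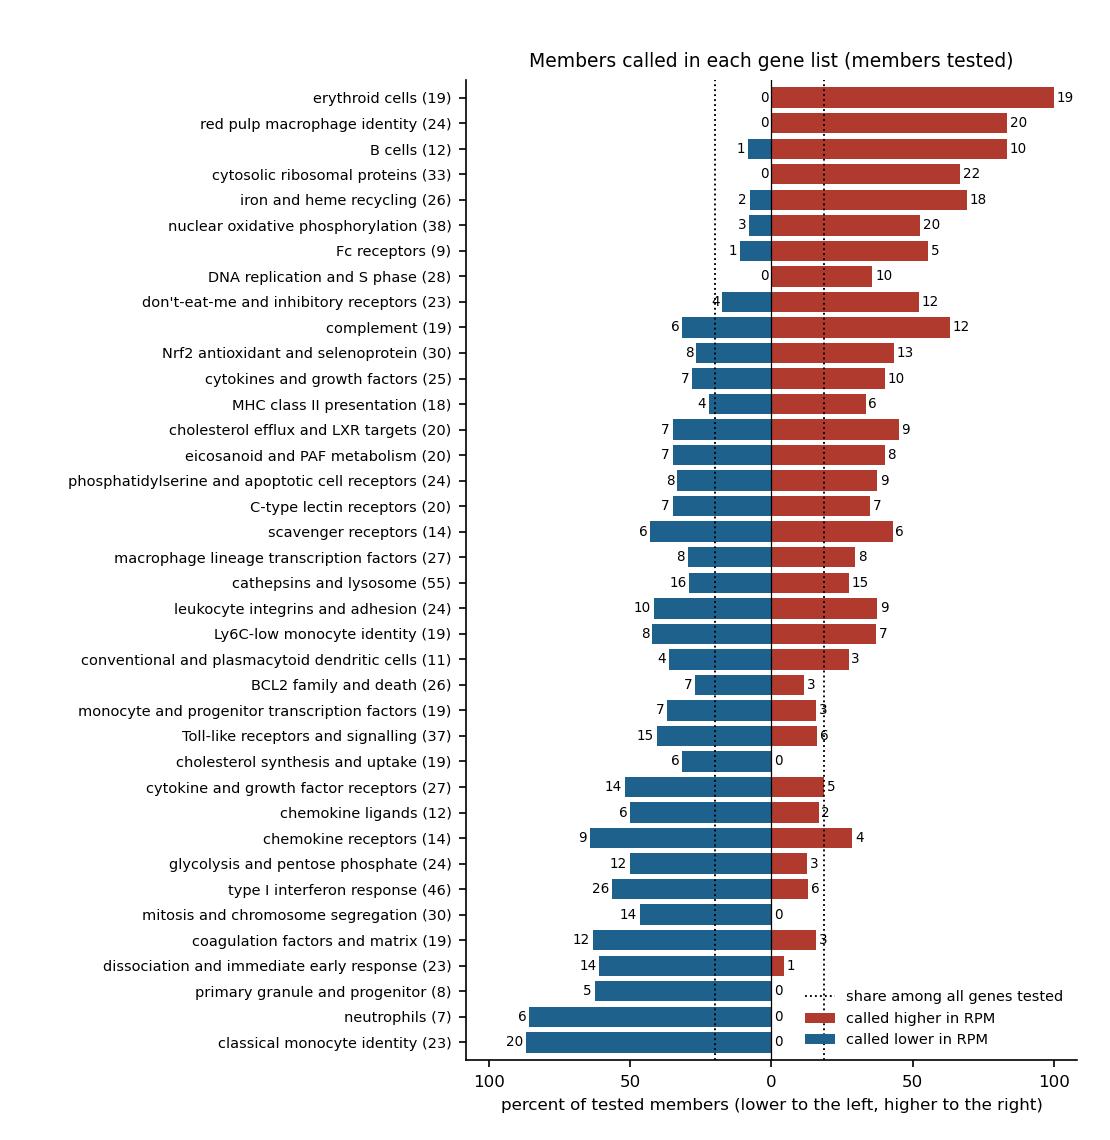
Percent of the tested members of each gene list (horizontal) called higher (red, right) or lower (blue, left) in RPM, for lists with at least 7 members tested, whose number stands in brackets. Figures at the bar ends count the genes, and dotted lines mark the 18.6% and 19.8% of all genes called higher and lower. Erythroid, red pulp macrophage and iron genes reach far to the right, classical monocyte, matrix and interferon genes far to the left, and many receptor families reach both ways.

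Antigen presentation was mixed, with 6 of 18 class II genes higher in RPM and 4 lower. Cd40 lay at 0, 11.3 and 39.9 CPM in RPM and at 226, 261 and 303 in Mono (-4.18 ± 0.43), and the class II transactivator Ciita at 2.68, 27.3 and 68.6 against 79.8, 114 and 139 (-1.98 ± 0.48). The costimulator Cd86 was higher at 366, 491 and 621 against 114, 153 and 171 (1.73 ± 0.15). For the 3 genes the ranges stood apart. Cd74 and H2-Ab1, the invariant chain and a class II chain, were not called (0.04 ± 0.21 and -0.24 ± 0.30). Cd74 held 1.20 reads per exonic base in Mono and 0.649 in RPM. As for Ifitm3, whether a ceiling held down its Mono level was not tested. H2-Ob and H2-Oa were higher (3.53 ± 1.04 and 1.96 ± 0.57) and are known from B cells, whose summed genes were also higher in RPM. Both calls were lost without mouse 24261, 24304 or 24308, and that of H2-Oa also without mouse 24107. The count of higher genes fell to 3, 2 and 3 without mouse 24261, 24304 or 24308. Over all genes those fits called 1458 of 9628, 1506 of 9644 and 1448 of 9635 higher.

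Integrins divided 9 higher and 10 lower of 24. Itgad, the alpha-D chain that binds Vcam1, lay at 207, 437 and 675 CPM in RPM and at most 2.62 in Mono (9.07 ± 0.50). Itgb7, a gut-homing chain, was lower at 0, 31 and 73.2 against 372, 441 and 507 (-3.80 ± 0.50), and Itga5, a fibronectin receptor chain, had 4 counts in RPM and 538 in Mono. The beta chains Itgb2 and Itgb1 were not called (-0.06 ± 0.12 and 0.23 ± 0.15). Lysosomal genes likewise gave 15 higher and 16 lower of 55. Ctsc, a cathepsin, was among the most abundant genes in both at 1523, 1660 and 2175 against 1729, 1876 and 2178 CPM and was not called (-0.13 ± 0.11), while Cd63 was higher (5.13 ± 0.62) and the glycosidase Gusb was lower (-1.37 ± 0.23).

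Of 20 LXR targets and cholesterol efflux genes 9 were higher and 7 lower. The cholesterol exporter Abca1 lay at 107, 147 and 236 CPM in RPM against 3.49, 12 and 26.2 (3.75 ± 0.42), and Apoc1 at 49.8, 247 and 390 against 15.2, 21.4 and 34.1 (3.21 ± 0.41). Apoc2 and the sterol hydroxylase Cyp27a1 fell by 2.36 and 2.32 on the log2 scale. Cholesterol synthesis and uptake had 6 of 19 genes lower, among them the mevalonate pathway enzyme Mvd (0, 11 and 25.3 against 68.8, 79.2 and 95.9 CPM). DESeq2 called 10 of the 19 lower, beside 2726 of all 9622 genes.

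Glycolysis was lower in RPM for 12 of 24 genes and higher for 3. The lactate exporter Slc16a3 had 298 counts, all in Mono (at least 45.6-fold lower), and the hexose transporter Slc2a6 lay at 0, 0.408 and 16.3 CPM in RPM against 168, 206 and 362 (-7.08 ± 0.59). Its relative Slc16a1 was higher at 24.4, 100 and 171 against 2.3, 7.16 and 15.1 (3.72 ± 0.58), and Ldha was not called (-0.13 ± 0.16). Antioxidant genes had 13 of 30 higher and 8 lower. After Hmox1, the glutathione enzymes Gstm5 and Gclm rose by 6.17 ± 0.57 and 2.54 ± 0.23, while Gpx3 fell (-2.10 ± 0.49).

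Nuclear genes of oxidative phosphorylation were higher in RPM for 20 of 38 and lower for 3, and cytosolic ribosomal protein genes were higher for 22 of 33. Cox5a, a subunit of complex IV, lay at 240, 307 and 488 CPM against 109, 121 and 144 (1.40 ± 0.15), and Uqcrc1 of complex III went the other way (-1.39 ± 0.30). Rplp1, of the ribosomal stalk, lay at 121, 180 and 484 against 52.4, 57.8 and 78.9 (1.88 ± 0.25). Ribosomal protein genes have many near-identical copies, so their counts are uncertain. Depth moved with both lists. Summed ribosomal CPM was 8474 in the RPM library of 268275 counts, 7362 in that of 403494 and 4424 in that of 1257240, and in Mono 3641 at 1157446 counts and 2843 to 3143 in the deeper ones. Exonic length moved with the calls too: of 540 tested genes with at most 1000 exonic bases 39.6% were higher and 5.74% lower, against 15.9% and 25% of the 2708 genes with 2000 to 4000. With all libraries thinned to 268275 counts 17 ribosomal genes were called higher, beside 1379 of all 6259 genes tested. The part of depth and length in these counts was not tested.

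**Figure D4:**
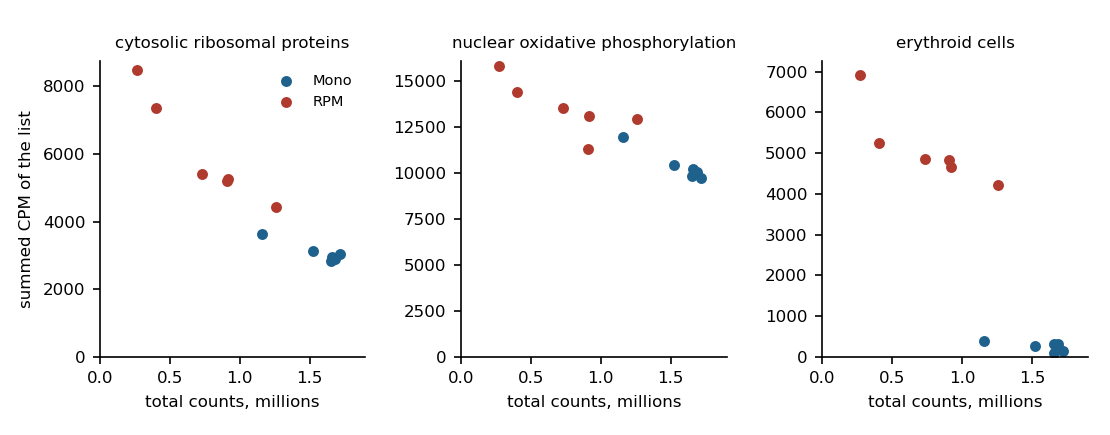
Summed CPM of 3 gene lists (vertical) against the total count of each library (horizontal), 1 point for each RPM (red) or Mono (blue) library. The ribosomal sum falls with depth within RPM from 8474 to 4424 and lies lowest in Mono. The oxidative phosphorylation sum of RPM is 15781 in the shallowest library, 11275 in that of 907658 counts and 12899 in the deepest. Its range overlaps that of Mono, 9696 to 11939. The erythroid sum of each RPM library (4225 to 6925) is far above each Mono library (93.4 to 394).

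Of 30 mitosis genes 14 were lower in RPM, among them Cdc20, the activator of the anaphase ligase (0, 15.8 and 84.9 against 106, 138 and 180 CPM, -2.73 ± 0.70), and the spindle motor Kif11 (-2.0 ± 0.43). Of 28 genes of DNA replication 10 were higher, among them the DNA ligase Lig1 (13.4, 144 and 198 against 4.19, 23.1 and 49.4 CPM, 2.21 ± 0.61). The ranges of Cdc20 and Kif11 were apart, while those of Lig1 overlapped and its call was lost without mouse 24380. The proliferation marker Mki67 was not called (0.48 ± 0.24, adjusted p = 0.13). DESeq2 called 22 mitosis genes lower, beside 2726 of all 9622 genes. The replication count fell from 10 to 4, 4 and 3 without mouse 24261, 24304 or 24308. Over all genes those fits called 1458 of 9628, 1506 of 9644 and 1448 of 9635 higher.

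Death genes were lower for 7 of 26 and higher for 3, beside 19.8% and 18.6% of all genes tested. Pore-forming Gsdmd lay at 4.06, 83.1 and 124 CPM in RPM and 259, 281 and 324 in Mono (-2.28 ± 0.50), and the BH3 proteins Bid and Pmaip1 were lower too (-2.41 ± 0.32 and -2.31 ± 0.30). The survival gene Bcl2l1 was higher at 64.5, 88 and 106 against 8.33, 11.3 and 22.7 (2.75 ± 0.33). No library overlapped for Gsdmd or Bcl2l1. DESeq2 called 13 death genes lower, beside 2726 of all 9622 genes. Of 23 immediate early genes, which tissue dissociation can induce, 14 were lower in RPM and 1 higher, their sum being 1270 to 2377 CPM in RPM and 5607 to 7916 in Mono. Atf3 lay at 21.2, 42.3 and 73.2 against 368, 502 and 652 CPM (-3.54 ± 0.22).

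The same within-mouse difference was taken in WT spleens. It was compared with that in TLR7.1 spleens by a population by genotype term over 24 libraries, with mouse as a block. Total counts were 95002 to 1511480 in WT RPM, the lowest in mouse 24323, and 1209266 to 1932427 in WT Mono. Mitochondrial genes took 0.600 to 2.63% of the counts in WT RPM. The part of depth in the genotype results was not tested. Of 10748 genes tested, 19 (0.177%) differed, 8 with a more positive and 11 with a more negative difference in TLR7.1 mice, and 888 had an unadjusted p under 0.05. Levels here are CPM scaled over the 24 libraries. Over the 12 fits that each left out 1 mouse, Ctse, Cd38, Arhgap19, Cd300lb, Tgfbi and Gpr141 were called in all 12. Rsad2 was called in 11, Cib2, Apol7c, Gatm and Ap1s2 in 10, Smim5 in 9 and F11r in 6. C1qa was called in 5, Hpgd, Rgs1 and Dennd4a in 4, Tfec in 3 and Alad in 1.

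Cathepsin E, Ctse, lay at 90.7 to 608 CPM in TLR7.1 RPM and 11.8 to 31.5 in TLR7.1 Mono, but at 0 to 32.7 in WT RPM and 14 to 39.6 in WT Mono. Its difference was greater in TLR7.1 mice by 4.24 ± 0.60 on the log2 scale (edgeR adjusted p = 0.0086). Cib2, a calcium-binding protein, lay at 174 to 351 against 44.7 to 70.9 CPM in TLR7.1 mice and at 0 to 47.4 against 43.9 to 64.2 in WT mice (2.60 ± 0.44). The Cib2 value of 0 came from the WT RPM library of 95002 counts. In TLR7.1 mice RPM exceeded Mono in 6 of 6 for both genes, and in WT mice in 1 of 6. Alad, the second enzyme of heme synthesis (2.71 ± 0.53), and Smim5 (5.0 ± 0.89) followed. Smim5 lay at 0 to 2.76 CPM in WT RPM and 5.44 to 55.8 in TLR7.1 RPM, and RPM were below Mono in all 12 mice. Summed erythroid genes were 4134 to 6720 CPM in TLR7.1 RPM and 467 to 6375 in WT RPM, and their part in these was not tested.

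Rsad2 was the fifth. It lay at 396 to 759 CPM in TLR7.1 RPM and 105 to 305 in WT RPM, and at 70 to 158 and 109 to 248 in Mono (2.22 ± 0.36, adjusted p = 0.014). RPM exceeded Mono in 6 of 6 TLR7.1 mice and 3 of 6 WT mice. The summed interferon list was 7915 to 9777 CPM in TLR7.1 RPM and 5714 to 8510 in WT RPM, ranges that overlapped.

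Among genes with a more negative difference, Cd300lb lay at 1.09 to 11.2 CPM in TLR7.1 RPM and 10.9 to 89.8 in WT RPM, beside 308 to 402 and 365 to 556 in Mono (-3.30 ± 0.54). RPM were below Mono in all 12 mice. Cd38, an NAD-consuming ectoenzyme, lay at 33.1 to 109 CPM in TLR7.1 Mono and 6.67 to 22.1 in WT Mono, with 421 to 694 and 462 to 748 in RPM (-2.46 ± 0.39). Arhgap19, a GTPase-activating protein, lay at 22.8 to 68.6 CPM in TLR7.1 Mono and 4.03 to 19.5 in WT Mono (-2.68 ± 0.44). For both genes the Mono ranges of the genotypes did not overlap and the RPM ranges did. Tfec, a MiT family factor of macrophages, was higher in RPM than Mono in 6 of 6 WT mice and 1 of 6 TLR7.1 mice (-2.64 ± 0.51). Apol7c lay at 21.8 to 86.3 CPM in WT RPM and at 0 to 1.09 in TLR7.1 RPM, beside 0 to 5.20 in WT Mono and 0 to 14.4 in TLR7.1 Mono. With TLR7.1 RPM and WT Mono near 0, its fitted size depends on the prior count. C1qa was also among the 19, with 753 to 1400 CPM in TLR7.1 RPM and 795 to 1468 in WT RPM, but 9.92 to 37.3 in TLR7.1 Mono and 1.51 to 11.3 in WT Mono (-2.37 ± 0.45). It was named after its value was seen.

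**Figure D5:**
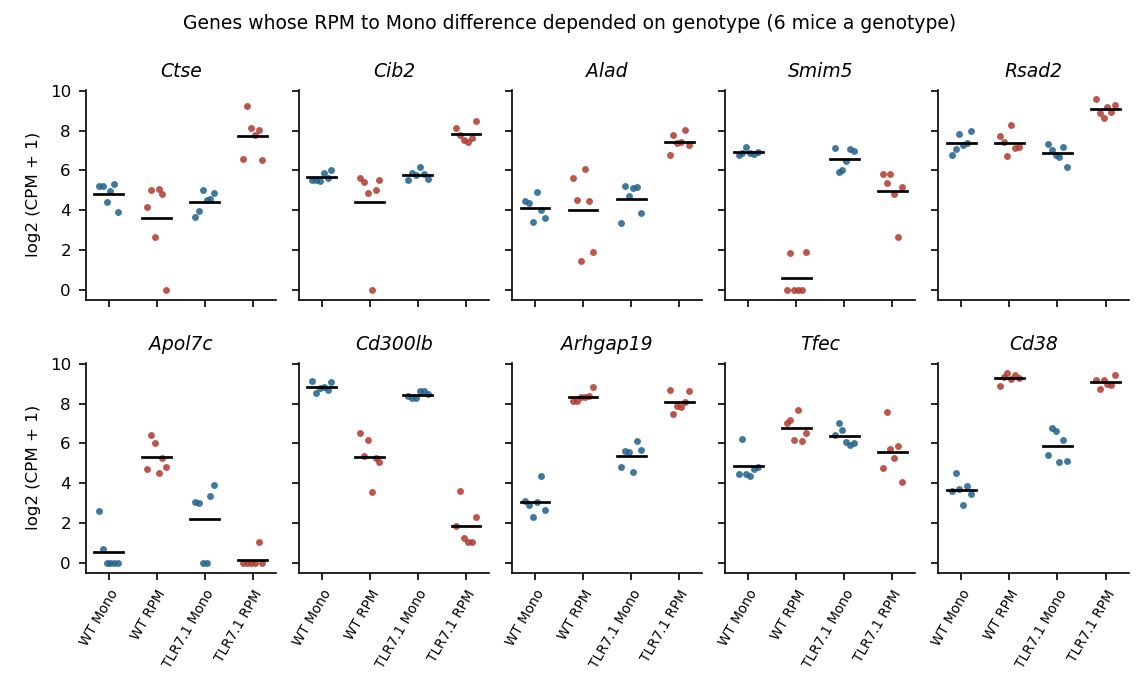
Level of 10 genes on the log2 (CPM + 1) scale (vertical) in WT and TLR7.1 Mono (blue) and RPM (red), 1 point for each of 6 mice a group, with a black bar at the mean. Ctse, Cib2, Alad and Rsad2 stand high in TLR7.1 RPM, Apol7c and Cd300lb stand lower in TLR7.1 RPM than in WT RPM, and Cd38 and Arhgap19 stand higher in TLR7.1 than in WT Mono.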

How the data were processed

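The deposited table holds whole-number counts per gene for 30 libraries, which the authors made, per the submitters' processing notes, with CASAVA 1.8.2, Bowtie, TopHat, Picard, SAMtools, FastQC and HTSeq 0.4.1 on build NCBIM37. How strand and multiply mapped reads were treated is stated by no source used here. Full-length cDNA amplified without molecular identifiers can count 1 molecule more than once. Of 37991 identifiers, 20439 had a count and 32919 had a symbol, which covered 99.11% of the counts.

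Counts were filtered and TMM-scaled, and tested with edgeR 4.0.16 (R 4.3.3, limma 3.58.1) by the quasi-likelihood test with mouse as a block, and also with DESeq2 1.42.0 as an alternative. The populations are paired because both came from the same animals, per the labels' titles. Residuals of the same mouse correlated at -0.000394 to 0.0825. Simulated counts returned 18.5%, 74.2% and 98.5% of genes changed 2-, 4- and 16-fold in the RPM against Mono comparison (9318 genes). Only 67, 67 and 66 genes were changed, far fewer than the 3703 called in the data. They were drawn from genes expected to be counted in the smallest library. With so few changes the adjustment is stricter, so these shares do not give the sensitivity of the real comparison. Alternatives were other scalings, filters, fits, thinning and leaving out each mouse. Intervals of pooled ratios cover counting error only, and those of log2 fold changes come from the edgeR fit.

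Named genes were Tlr7, Spic and gate genes, the 15 largest called changes each way, up to 4 called members of a list in its main direction, 2 in the other and 2 not called, and the 5 largest interaction terms each way. Other genes were named after their values were seen. Members and lists were chosen with earlier results of these data known. Promoters are from RefSeq (GRCm38.p6), in which 27025 genes had a window, and exonic lengths from GENCODE. Inflammatory hemophagocytes were not analysed here. Some genes that the rule names are not reported here.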

Additional observations from a re-analysis of the deposited data

Results flagged for a closer look

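In 34 of 363 groups of 6 libraries with a mean of at least 20 CPM, the highest or lowest library stood apart from the other 5 by more than Dixon's 95% critical value of 0.625 of the range. Chance gives about 1 in 20 groups. Of the 34, 19 lay in mouse 24380, whose RPM and Mono libraries were the shallowest of their populations. The RPM library of mouse 24107 was the highest at 621 CPM for Ctse, 195 CPM for Tfec, 1736 CPM for the summed chemokine ligand genes, 1173 CPM for the summed primary granule and progenitor genes, 2423 CPM for the summed T and NK cell genes and 486 CPM for the summed neutrophil genes. That library was the lowest at 331 CPM for C6. The RPM library of mouse 24068 was the highest at 139 CPM for Nr4a1 and 769 CPM for Rac1. The RPM library of mouse 24380 was the highest at 102 CPM for Nfil3, 309 CPM for Cp and 97.5 CPM for Il17ra. It was the lowest at 44.7 CPM for Cd300e. The highest RPM library was that of mouse 24304 at 137 CPM for Pdgfc. Mouse 24261 had the highest RPM library at 902 CPM for Cd47. The Mono library of mouse 24308 was the highest at 129 CPM for Spic. The Mono library of mouse 24380 was the highest at 1249 CPM for Fn1, 698 CPM for Ifitm3, 756 CPM for Rac1, 936 CPM for Rac2, 1637 CPM for Cd74, 362 CPM for Slc2a6, 752 CPM for Uqcrc1, 78.9 CPM for Rplp1, 14508 CPM for the summed classical monocyte identity genes, 9679 CPM for the summed Nrf2 antioxidant and selenoprotein genes, 11939 CPM for the summed nuclear oxidative phosphorylation genes and 7916 CPM for the summed dissociation and immediate early response genes. The Mono library of mouse 24380 was the lowest at 217 CPM for Fcgr1, 367 CPM for Slfn1 and 1157446 counts in all. The Mono library of mouse 24261 was the highest at 207 CPM for Lcn2 and 267 CPM for Hmox1. The Mono library of mouse 24304 was the highest at 67.6 CPM for Ticam2. No cause was tested.

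In 19 genes the RPM to Mono difference itself differed between TLR7.1 and WT mice (edgeR, population by genotype term). As log2 differences, TLR7.1 minus WT, the higher were Smim5 4.998, Ctse 4.24, Alad 2.71, Cib2 2.60, Rsad2 2.22, Dennd4a 2.14, Ap1s2 1.71 and Hpgd 1.33, and the lower were Rgs1 -1.47, Tgfbi -1.685, Gatm -1.87, Gpr141 -2.03, F11r -2.32, C1qa -2.37, Cd38 -2.46, Tfec -2.64, Arhgap19 -2.68, Cd300lb -3.30 and Apol7c -10.29. The value of Apol7c depends on the prior count. Of the genes not described above, Hpgd, which degrades prostaglandins, lay at 837 to 1633 CPM in TLR7.1 RPM and 987 to 1504 in WT RPM, against 103 to 305 and 408 to 715 in Mono. Hpgd was called in 4 of the 12 fits that each left out 1 mouse. Tgfbi lay at 138 to 227 CPM in TLR7.1 RPM and 397 to 1177 in WT RPM, and Gpr141 at 21.8 to 63.1 and 131 to 250.5, with no overlap between the genotypes in either.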

How the results depend on the processing

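The count of 3703 genes stayed within 1.5 times under every alternative run: 4611 by DESeq2, 3803 with RLE scaling, 4139 of 12124 tested with a filter of 1 CPM in 6 libraries (looser than the main one), 4134 without a filter, 5010 with all 30 libraries and the mouse block, 5135 with all 30 and no block, 4139 with no replicate block over the 12, 3697 without hemoglobin and immunoglobulin genes, 2791 of 6259 tested after thinning, and 2991 to 3546 without 1 mouse. The median log2 fold change of all genes moved from -0.17 to -0.24 with RLE scaling and -0.02 with no block. Of 153 called genes named here, 148 kept call and direction in every alternative that tested them, and 0 reversed. Thinning tested 2864 of the 3703 called genes. Of those not called, 4 were called under some alternative (Zeb2, Ccl4, Fcgr3 and Lrp1), and 32 pairs of gene and alternative had another sign and were still not called.

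The count of 19 population by genotype genes (8 higher, 11 lower) was less stable. DESeq2 called 142 (70 and 72), edgeR without a filter 44 (24 and 20) and no replicate block 58 (36 and 22). Thinning to the smallest library, of 95002 counts, left 6 (3 and 3) of 4128 genes tested. Without 1 mouse the count was 6 to 46, with 1 to 21 higher and 5 to 25 lower: 46 without 24117, 12 without 24214 or 24261, 11 without 24323 and 6 without 24415. The cause was not tested. The mitochondrial difference was 0.6045 to 0.8426 percentage points without 1 mouse, where 5 pairs cannot go below p = 0.0625 (exact sign-flip test). In the simulated counts, in which few genes were changed, 18.5% of changes of 2-fold were found. The parts of depth and spread were not told apart.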
